A study of Rattus norvegicus with 79 samples.

Results

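The genes described are those that encode subunits of the oxidative phosphorylation system, in the CA1 field of the rat hippocampus. Members were chosen by symbol from the probe-to-gene table: all symbols that begin with Nduf, Sdh followed by a to d, Uqcr, Cox4, Cox5, Cox6, Cox7, Cox8 or Atp5, on probe sets with a single symbol. A probe set is a group of short probes for a single transcript. The rule found 55 genes on 101 probe sets, out of 4736 genes on 8799 probe sets. By complex they were 25 genes of complex I, 2 of complex II, 3 of complex III, 15 of complex IV and 10 of complex V. A filter on low signal kept 54 of the genes and 87 of their probe sets. The gene that did not pass was Ndufs1, a core iron-sulphur subunit of complex I, whose single probe set had a mean signal of 47.6. In all, 14 member probe sets were not tested, and 6 probe sets with several symbols were not counted. The name rule also takes in proteins that are not subunits. Ndufaf3, Sdhaf2 and Cox7a2l are assembly factors, Atp5if1 inhibits the reverse reaction of ATP synthase, and Cox6c-ps1 is a pseudogene. Ndufa4 is named for complex I but is now placed in complex IV, and it is counted there with its relative Ndufa4l2.

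The animals were male Fischer 344 rats aged 3 months (young) or 24 months (aged), with 1 array for each animal. Before death, 24 hours after the last trial, rats had stayed in their cages, had swum in a yoked control condition with no platform, or had been trained in a water maze to a visible or a hidden platform. The young groups held 3 cage and 6 yoked rats, 4 trained to the visible platform and 6 to the hidden one. There were 5 aged cage, 8 aged yoked and 8 aged visible platform rats. Aged rats trained to the hidden platform were divided by learning into 13 unimpaired and 10 impaired rats, and 16 more bear a letter B that the labels leave unexplained. The tissue was a punch, 300 µm wide, of the CA1 cell layer from a slice of 1 mm, so a sample holds neurons, glia and vessels together, and fewer cells of a type cannot be told apart from less RNA per cell.

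Oxidative phosphorylation passes electrons from NADH (complex I) or succinate (complex II) through complex III to cytochrome c oxidase (complex IV), which reduces oxygen. The energy released pumps protons across the inner mitochondrial membrane, and complex V, the ATP synthase, uses their return to make ATP. Neurons depend heavily on this supply to keep up ion gradients and synaptic transmission. Nearly all subunits are encoded in the nucleus, as are all genes described here, and transcription factors such as NRF1, YY1 and members of the ETS family are known to act at many of their promoters.

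Promoter sequences, from 250 bases before the start of transcription to 50 bases after it, came from RefSeq on build GRCr8 and matched 47 of the 55 genes. Atp5pd, Cox4i2, Cox6a1, Cox6c, Cox6c-ps1, Ndufa8, Ndufb9 and Uqcr11 had no match. Short motifs were searched on both strands. The YY1 motif AAGATGGC stood in 11 of the 47 member promoters (23.4%) and in 3.44% of all 27457 promoters of that length. It began within 30 bases of the start in 10 member promoters (21.3%) and in 486 of all promoters (1.77%). Of all promoters, 945 held the motif at any place, beside the 11 member promoters. The ETS motif CCGGAAG stood in 21.3% of member promoters and 9.22% of all. The NRF1 motif (GCGCA, any base, GCGC) stood in 12.8% and 4.71%, the Sp1 motif GGGCGG in 44.7% and 34.9%, and the ERR motif CAAGGTCA in 2.13% and 1.48%. No pair of different motifs overlapped in a member promoter. A match describes letters and is not evidence of binding. The 4 promoters below belong to genes on which the age comparison turns, 3 with a lower signal in aged rats and 1, Atp5f1d, with a higher signal. Each lies on the minus strand and reads 5′ to 3′, and capitals mark a motif on either strand. Ndufs4 is at chr2:47794865-47795164, Ndufa6 at chr7:115750268-115750567, Atp5pb at chr2:196123688-196123987 and Atp5f1d at chr7:10214301-10214600.
Ndufs4: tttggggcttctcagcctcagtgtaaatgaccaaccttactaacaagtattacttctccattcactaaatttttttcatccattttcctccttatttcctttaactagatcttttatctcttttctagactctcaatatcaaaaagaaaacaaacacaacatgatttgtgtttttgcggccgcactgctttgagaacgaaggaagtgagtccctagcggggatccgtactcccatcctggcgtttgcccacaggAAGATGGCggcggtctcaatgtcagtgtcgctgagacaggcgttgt
Ndufa6: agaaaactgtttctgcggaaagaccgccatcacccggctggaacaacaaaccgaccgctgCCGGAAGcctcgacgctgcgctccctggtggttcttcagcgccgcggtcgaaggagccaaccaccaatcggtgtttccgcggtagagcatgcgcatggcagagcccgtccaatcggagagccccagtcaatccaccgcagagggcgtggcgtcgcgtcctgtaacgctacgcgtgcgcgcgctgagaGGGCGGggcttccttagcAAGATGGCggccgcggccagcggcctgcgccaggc
Atp5pb: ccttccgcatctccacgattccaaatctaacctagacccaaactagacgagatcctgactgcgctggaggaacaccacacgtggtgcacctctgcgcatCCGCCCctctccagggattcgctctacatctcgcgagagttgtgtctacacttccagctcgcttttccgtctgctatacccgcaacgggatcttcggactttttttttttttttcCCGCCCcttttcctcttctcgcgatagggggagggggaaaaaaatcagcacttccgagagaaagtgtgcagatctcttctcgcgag
Atp5f1d: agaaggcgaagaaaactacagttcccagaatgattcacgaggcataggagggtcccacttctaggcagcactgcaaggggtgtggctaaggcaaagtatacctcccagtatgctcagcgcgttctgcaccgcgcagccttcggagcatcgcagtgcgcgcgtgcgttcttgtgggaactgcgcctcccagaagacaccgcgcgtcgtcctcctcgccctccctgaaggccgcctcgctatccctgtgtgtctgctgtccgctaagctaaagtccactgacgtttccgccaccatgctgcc
The Ndufs4 and Ndufa6 promoters carry the YY1 motif just after the start, that of Ndufa6 also an ETS and an Sp1 motif, that of Atp5pb 2 Sp1 motifs, and that of Atp5f1d none of the 5 motifs searched.

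Array quality bears on what follows. Each array was correlated with all others (Spearman), and the median of these correlations ranged from 0.223 to 0.940, and 14 of the 79 arrays fell under 0.85. They were 4 of 8 aged visible platform, 2 of 3 young cage, 2 of 4 young visible platform, 2 of 10 impaired and 1 each of the young hidden, aged cage, aged yoked and unimpaired arrays, and no B array. Results are given with all arrays and mostly also without these 14. Leaving them out keeps 35 aged and 14 young arrays in the age comparison and a single young cage array. Within each age, comparisons of hidden platform with visible platform or yoked rats are described with all arrays only. The defining markers of pyramidal neurons Nrgn and Hpca were bright, with median signals of 16202 and 11190, while Camk2a and Slc17a7 did not pass the filter on low signal. Of the astrocyte markers, Glul, S100b, Aldoc and Slc1a3 were bright too (medians of 7891, 8296, 6925 and 5128), so glia were present in the punches. Slc1a2 and Aqp4 were dim (211.3 and 152.5), and Gja1 (17.5) did not pass the filter. Scaling had given all arrays about the same mean, so each value is a share of an array's signal and not an amount per cell.

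The member genes were among the brighter on the array, with 46 of 55 above the 80th percentile of mean signal. Mean signals of the 54 genes that passed the filter ran from 119 for Cox8b, the heart and muscle isoform of subunit 8 of cytochrome c oxidase, to 20097 for Cox8a, its liver-type isoform; signals of different probe sets are not amounts that can be compared. The level of the genes together was described on each array as the median, over the 54 genes, of the difference from each gene's median over all 79 arrays. Group medians of this deviation lay between -0.14 (B rats) and 0.23 (young yoked rats) on the log2 scale. From the lowest to the highest array it went from -1.07 to 0.30 in young cage, -0.02 to 0.57 in young yoked, -0.09 to 0.23 in young visible and -0.27 to 0.31 in young hidden rats. In aged rats it went from 0.05 to 0.51 in cage, -0.89 to 0.13 in yoked, -1.23 to 0.33 in visible, -0.55 to 0.46 in unimpaired, -2.60 to 0.35 in impaired and -0.54 to 0.35 in B rats. The ranges of all 10 groups overlapped. The 4 lowest arrays, 1 each of the impaired, aged visible, young cage and aged yoked groups, were all among the 14 of low correlation.

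**Figure D1:**
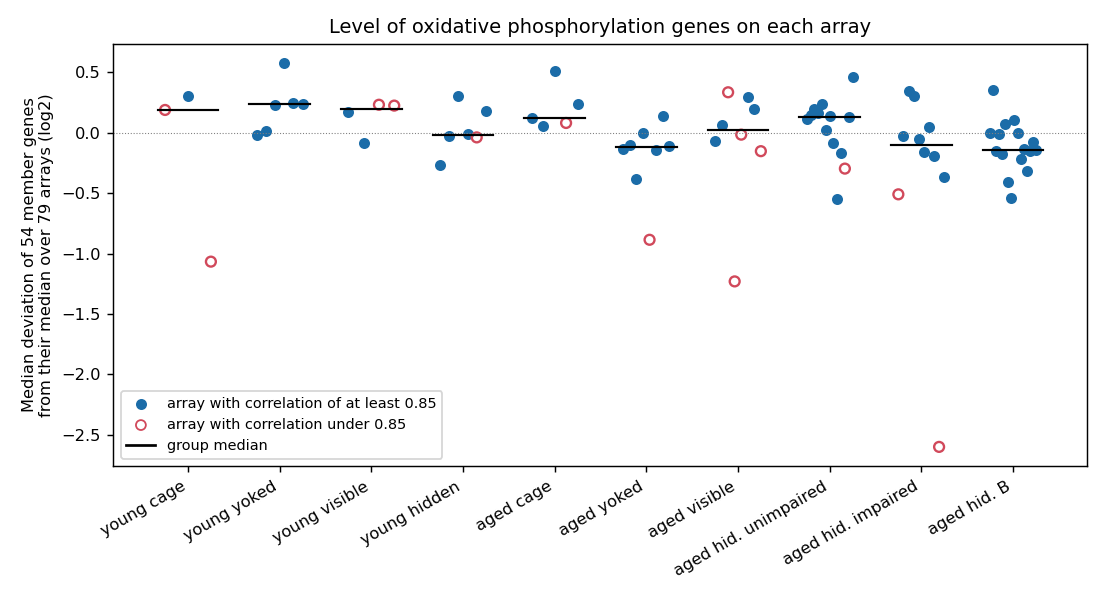
Each point is 1 array, and the vertical axis is the median log2 deviation of 54 oxidative phosphorylation genes from their medians over the 79 arrays, by group; open points are the 14 arrays of low correlation and bars are group medians. Apart from open points as low as -2.60, the groups overlap.

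The same arrays shaped the spread of single genes. The median within-group SD of the 54 genes was 0.70 with all arrays and 0.43 without the 14. It was 0.68 and 0.48 over all probe sets tested, and 0.68 and 0.40 over the 1049 brightest of them. The size of the drop was thus shared by other bright probe sets. On the lowest impaired array (median correlation 0.223), 47 of 54 genes lay below their own median, with a median deviation of -3.05 for complex V and -2.42 for complex I. On that array the ubiquitous subunits of complex IV deviated by a median of -3.80, whereas the median deviation of its tissue isoforms and pseudogene was positive. The brightest genes of the array deviated by a median of -2.64 there, so the low level of the member genes was shared by other bright probe sets. The 3′ over 5′ signal of the control transcripts was -0.31 (log2) on it, and the part of RNA quality in these values was not tested.

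The first question was whether CA1 of aged rats differed from that of young rats in these genes, with treatment as an additive factor. Aged rats had lower signals of 3 member genes, Ndufs4, Ndufa6 and Cox6c. No member gene was higher at the threshold with its brightest probe set. A second probe set of Atp5f1d was higher, by 0.94 ± 0.27 (limma adjusted p = 0.0270). With all arrays, 41 of 54 genes were lower, with a median log2 difference of -0.15, beside -0.05 over all probe sets tested and -0.04 over the 1049 brightest of them. The 3 genes are 5.56% of the 54, and over all 3233 genes tested 4.67% passed (2.29% fell and 2.38% rose). An unadjusted p under 0.05 was found for 12 of 54 members (22.2%) and 20.8% of all genes. The share of member genes that passed was thus near that of all genes. All tests used limma, with p adjusted by Benjamini-Hochberg over all 5244 probe sets.

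Ndufs4 encodes an accessory subunit that stabilises the NADH-oxidising module of complex I. Its signals in young cage rats were 5248, 3143 and 2417, and in young visible platform rats 1548, 1473, 3427 and 2741. In aged cage rats they were 1790, 1503, 1932, 1564 and 1866, all below the lowest young cage value. Among these arrays, 2 of 3 young cage, 2 of 4 young visible platform and 1 of 5 aged cage arrays were of low correlation. Yoked rats had a lowest, median and highest signal of 1573, 2345 and 3420 when young and 396, 1047 and 1642 when aged. In hidden platform rats the young values of 1036, 1502 and 2255 lay within those of unimpaired rats, 508, 1699 and 2384. The age difference of Ndufs4 was -0.70 ± 0.16 (log2 ± SE, limma adjusted p = 0.00441), and 34 of 44 aged arrays were below the young mean of their treatment. It was -0.58 ± 0.17 without the 14 arrays (limma adjusted p = 0.0196). A second probe set for Ndufs4 had a difference of -0.20 ± 0.16 and did not pass.

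Ndufa6, an accessory subunit of complex I of the LYR-motif family, differed by -0.67 ± 0.20 (limma adjusted p = 0.0387), with 36 of 44 aged arrays below the young mean. Its signals in young cage rats were 14570, 7999 and 3547, and in aged cage rats 2309, 1786, 3769, 4105 and 3895, so the groups overlapped. In the fit without the 14 arrays the difference was -0.54 ± 0.22 and did not pass (limma adjusted p = 0.0865), and a second probe set of Ndufa6 differed by -0.02 ± 0.19. Cox6c, a small structural subunit of cytochrome c oxidase, had a difference of -0.67 ± 0.21 (limma adjusted p = 0.0414), with lowest, median and highest signals of 215, 341 and 1038 in young hidden platform rats and 73.7, 259 and 431 in unimpaired rats. A second Cox6c probe set lay on the other side of 0, at 0.20 ± 0.22. The call of Cox6c thus rests on 1 of its 2 probe sets. Leaving out 1 array at a time ended the call of Ndufa6 in 14 and that of Cox6c in 19 of 63 fits, and that of Ndufs4 in 0.

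Without the 14 arrays of low correlation, 12 of 54 genes passed in the age comparison (22.2%), beside 13.9% of all genes tested. Of these, 9 fell (16.7% of members, beside 7.61% of all genes) and 3 rose (5.56%, beside 6.31%). Ndufs4 and Cox6c passed in both fits. Those that fell were 6 genes of complex I, 2 of complex V and Cox6c. The 11 Ndufb and Ndufc genes encode some, not all, of the accessory subunits of the proton-pumping membrane arm. Of these 11, 5 fell: Ndufb11 by 0.50 ± 0.10, Ndufb6 by 0.47 ± 0.11, Ndufc1 by 0.53 ± 0.15, Ndufb5 by 0.43 ± 0.13 and Ndufc2 by 0.41 ± 0.14. The median of the 11 was -0.41 and 10 were lower in aged rats; with all arrays the median was -0.34, all 11 were lower and none passed. This grouping was made with the values known. A second probe set of Ndufc1 also fell (-0.54 ± 0.13, limma adjusted p = 0.00505), while one of Ndufb6 was at 0.09 ± 0.13. Ndufb6 signals were 1355, 2371 and 3276 (lowest, median, highest) in young yoked and 1232, 1387 and 2021 in aged yoked rats. Ndufc1 signals were 1269, 2381 and 3302 in young yoked and 654, 1128 and 1827 in aged yoked rats. For both genes the ranges overlapped and the aged median lay below the young one.

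Ndufb11, at the distal part of the membrane arm, had young yoked signals of 2150, 3460 and 4389 (lowest, median, highest) and aged yoked signals of 942, 2036 and 2620, which overlapped. In young visible platform rats Ndufb11 was at 2939, 3410, 4255 and 4317. In aged cage rats it was at 1844, 1315, 2612, 2496 and 2630. The aged cage values were all below those of the young visible rats, but 1 young cage array of low correlation read 649. The 3 core iron-sulphur subunits of complex I that were tested, Ndufs7, Ndufs8 and Ndufv2, had differences of 0.01 to 0.34 without the 14 arrays, and none passed. Ndufa3, another accessory subunit of complex I, rose by 0.44 ± 0.16 (limma adjusted p = 0.0485).

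In complex V the subunits differed in sign. With those arrays left out, 2 of 4 peripheral stalk genes fell, Atp5pb (subunit b) by 0.57 ± 0.13 and Atp5pf (subunit F6) by 0.38 ± 0.13. The stalk holds the catalytic head still against the turning rotor. In the head and central stalk, 2 of 5 genes rose, Atp5f1d (delta) by 0.68 ± 0.19 and Atp5f1b (the catalytic beta subunit) by 0.28 ± 0.09. Atp5f1d was the member whose rise was seen with both of its probe sets: the second one rose with all arrays too, by 0.94 ± 0.27 (limma adjusted p = 0.0270) and by 0.88 ± 0.19 without the 14. The brighter probe set of Atp5f1d read 327, 485 and 788 in young cage rats and 1375, 2129, 3000, 1825 and 4220 in aged cage rats, with no overlap, although 2 of the 3 young cage arrays were of low correlation. In hidden platform rats it did overlap, with 969, 2327 and 3731 (lowest, median, highest) in the young and 1183, 2350 and 2919 in unimpaired rats. Atp5pb read 2124, 3660 and 4644 in young yoked and 1332, 2296 and 3417 in aged yoked rats.

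**Figure D2:**
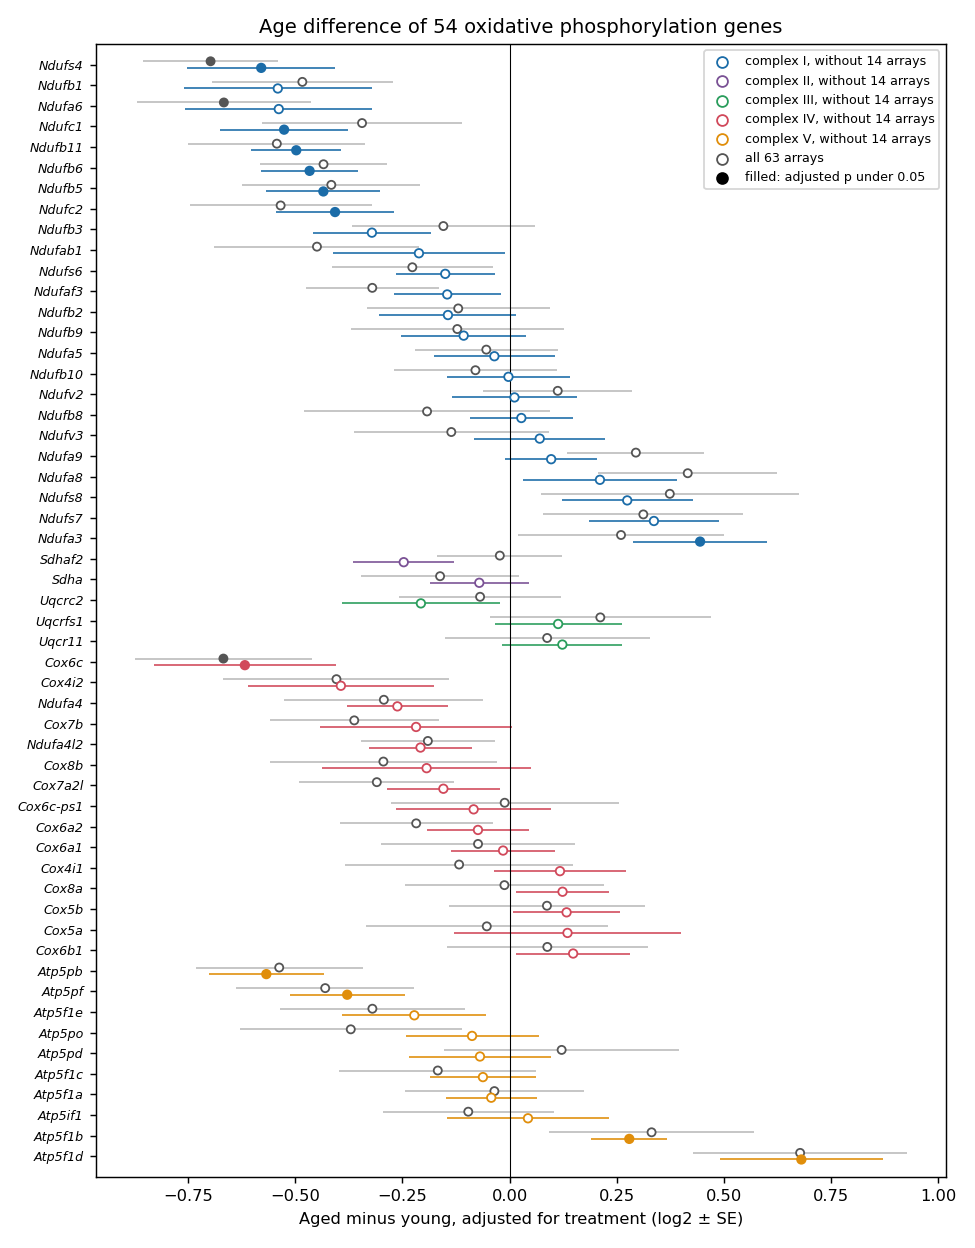
Log2 difference, aged minus young, with its SE for 54 genes by complex; grey points use all 63 arrays, coloured points leave out the arrays of low correlation, and filled points passed the threshold. Ndufs4 and Cox6c are filled in both fits, and the filled points on the right are Ndufa3, Atp5f1b and Atp5f1d.

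**Figure D3:**
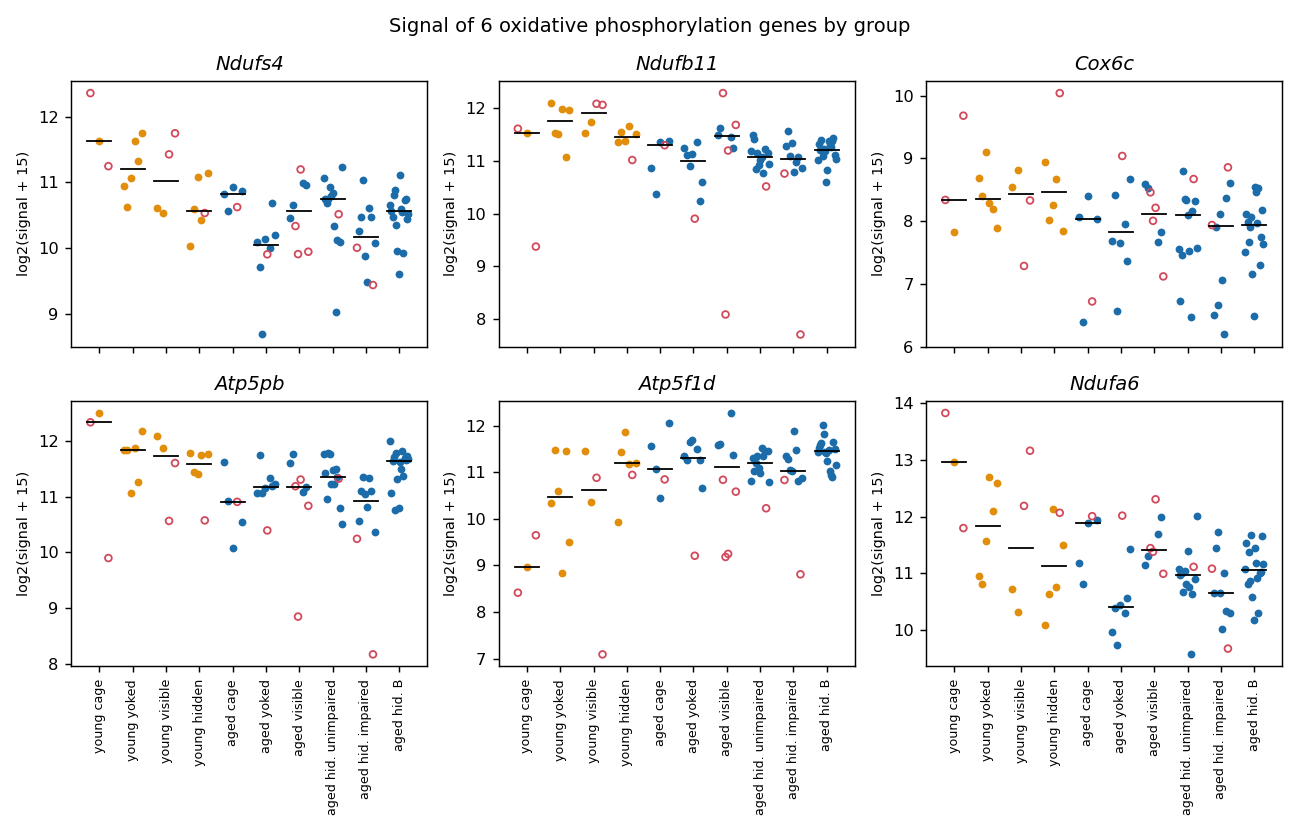
Signals of 6 genes as log2(signal + 15) on each array, in orange for young and blue for aged rats, with arrays of low correlation open and group medians as bars. By group median, Ndufs4 is highest in young cage, yoked and visible platform rats, while Atp5f1d is lowest in young cage rats. Of these arrays, 2 of 3 young cage and 2 of 4 young visible platform arrays are of low correlation.

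No gene of complexes II and III passed with age. Complex II was measured by Sdha, the subunit that oxidises succinate, and by the assembly factor Sdhaf2. Sdha signals were 650, 1438 and 2305 (lowest, median, highest) in aged yoked and 984, 1808 and 2325 in young yoked rats, which overlapped, and its age difference was -0.16 ± 0.18. Uqcrfs1, the Rieske iron-sulphur protein of complex III, was at 0.21 ± 0.26 with its brightest probe set, while its other probe sets were at -0.38 ± 0.15 and 0.42 ± 0.30. Uqcrc2, a core protein of complex III, was at -0.07 ± 0.19. The genes of complex IV counted as ubiquitous, Cox7a2l among them, had a median of -0.10, and 0.05 without the 14 arrays, with 1 of 10 past the threshold (Cox6c) in both fits. The 4 tissue isoforms of complex IV and its pseudogene were all lower in aged rats, with a median of -0.22, and none passed. Cox4i2, an isoform of subunit 4 linked to low oxygen, had median signals of 1276 in young cage and 269 in aged cage rats, with ranges of 564 to 1572 and 135 to 1071 that overlapped, and an age difference of -0.40 ± 0.26. Cox6a2 and Cox8b, isoforms of heart and muscle, were at -0.22 ± 0.18 and -0.29 ± 0.27, and the brain-expressed Cox6a1 and Cox8a at -0.07 ± 0.23 and -0.01 ± 0.23. Ndufa4l2 was at -0.19 ± 0.16 and Ndufa4 at -0.29 ± 0.23.

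The age difference was then taken within each treatment. The median over the 54 genes was 0.38 in cage, -0.38 in yoked, -0.19 in visible and -0.19 in hidden platform rats with all arrays, and -0.02, -0.27, 0.07 and -0.04 without the 14. Over all probe sets tested the medians in that order were -0.27, 0.06, -0.03 and -0.05 with all arrays, and -0.04, 0.01, -0.11 and -0.04 without the 14. The positive cage value of the members was thus not kept without the 14 arrays, which include 2 of 3 young cage and 1 of 5 aged cage arrays. The yoked difference of the members kept its sign, with 45 and 42 of 54 genes lower, beside 2335 and 2570 of all 5244 probe sets. The interaction of age with treatment passed for 0 of 54 genes, beside 0.217% of all genes (limma moderated F test; 10 member genes, or 18.5%, and 13% of all genes had an unadjusted p under 0.05). With the 14 arrays left out it passed for Ndufa6 alone (1.85%, beside 1.24% of all genes; limma adjusted p = 0.0443). Its age difference was then -1.51 ± 0.64 in cage and -1.39 ± 0.32 in yoked rats, -0.18 ± 0.29 in hidden platform rats and 1.02 ± 0.50 in visible platform rats. That fit holds 1 young cage, 2 young visible platform, 4 aged cage and 4 aged visible platform arrays, and the single array is assumed to vary like the other groups. With all arrays the interaction of Ndufa6 had a limma adjusted p of 0.494, and its second probe set 0.624.

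Next, impaired were compared with unimpaired aged rats, which asks whether learning status goes with these genes. No member gene passed, and no gene of the 3233 tested did (0.0%; by limma 9.26% of member genes and 13% of all genes had an unadjusted p under 0.05). With all arrays, 47 of 54 genes were lower in impaired rats, with a median of -0.31 beside 0.04 over all probe sets. The 1049 brightest probe sets had a median of -0.41, however, and the ribosomal protein and proteasome subunit genes, 40 and 22 in number, had medians of -0.46 and -0.42. Without the lowest impaired array the member median was -0.09, and without all 14 arrays it was -0.07, with 34 of 54 genes lower. The smallest p belonged to Atp5pf, at -0.85 ± 0.32 (limma adjusted p = 0.314), and it was -0.24 ± 0.18 without the 14 arrays. Atp5pf signals were 1075, 2153 and 4114 (lowest, median, highest) in unimpaired and 80, 1867 and 2303 in impaired rats, where 80 is the array of lowest correlation. Atp5pb was at -0.71 ± 0.28 and -0.36 ± 0.18 in the 2 fits, with signals of 1453, 2598 and 3529 in unimpaired and 273, 1943 and 2603 in impaired rats. With their brightest probe sets, the 4 peripheral stalk genes were all lower in both fits and none passed. Second probe sets of Atp5pf and Atp5po were at -0.99 ± 0.33 and 0.14 ± 0.26 with all arrays. Cox6c-ps1 was at 0.96 ± 0.40 and 0.43 ± 0.25.

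**Figure D4:**
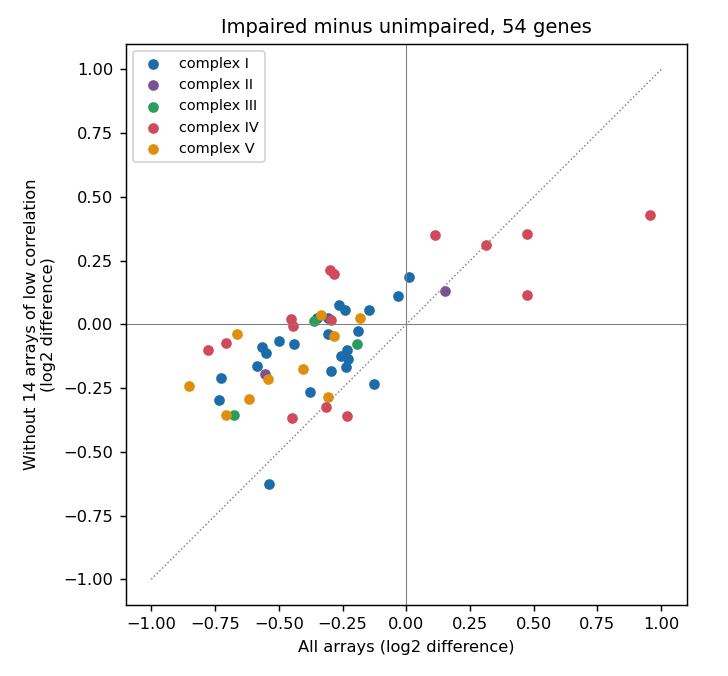
Each point is 1 of 54 genes; the horizontal axis is the log2 difference of impaired minus unimpaired rats with all arrays and the vertical axis the same without the arrays of low correlation, and the dotted line marks equal values. The median over the genes is -0.31 on the horizontal and -0.07 on the vertical axis.

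Training was then set against its controls in aged rats. The comparisons that use aged cage rats share those 5 animals, and hidden platform stands for the mean of the unimpaired and impaired groups. No member gene passed in any of them with all arrays. Hidden against visible platform rats gave a median of -0.01 over the 54 genes, beside 0.0309% of all genes called. The smallest p was that of Ndufa6, at -0.73 ± 0.25 (limma adjusted p = 0.265). Hidden against yoked rats gave a median of 0.08 (0.0% of genes called), with Uqcrc2, a core protein of complex III, at 0.51 ± 0.26. In these comparisons 6 and 0 member genes had an unadjusted p under 0.05 (11.1% and 0 of the members, beside 10.6% and 2.66% of all genes).

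Against aged cage rats, the median over the 54 genes was below 0 in each of the 3 other conditions, and no member passed. The median was -0.37 for hidden platform, -0.43 for yoked and -0.39 for visible platform rats, with 44, 44 and 38 of 54 genes lower. Over all probe sets tested the medians were 0.08, 0.14 and 0.10, and over the 1049 brightest they were -0.13, -0.10 and -0.20. Of all genes, 0.0% passed in each, and 11, 10 and 5 member genes had an unadjusted p under 0.05 by limma (20.4%, 18.5% and 9.26%, beside 8.01%, 8.66% and 9.46% of all genes). Without the 14 arrays the member medians were -0.26, -0.40 and -0.07, beside 0.02, 0.0023 and 0.03 over the 1049 brightest, so that the visible platform value changed most. No member passed then either. Of all genes, 1.27% passed for hidden platform (0.680% rose, 0.588% fell), 0.186% for yoked (0.124% rose, 0.0619% fell) and 0.0% for visible platform rats. In the yoked comparison, Cox7b, a small subunit of cytochrome c oxidase, was at -1.02 ± 0.33 (limma adjusted p = 0.325) and at -1.15 ± 0.35 without the 14 arrays. Cox4i1, the ubiquitous isoform of subunit 4, had signals of 17042 to 33648 (median 23181) in aged cage rats and 7533 to 17234 (median 11661) in aged yoked rats, which overlapped only between 17042 and 17234. Its difference without the 14 arrays was -0.99 ± 0.25 (limma adjusted p = 0.0593). Ndufb10, an accessory subunit of complex I, was at -1.14 ± 0.38 and -0.94 ± 0.25 in the 2 fits. No marker of another cell type passed between hidden platform and cage rats. Of the 2 blood markers, Hbb (haemoglobin) was at -1.76 ± 0.68 (limma adjusted p = 0.398) and Alas2 at 0.14 ± 0.28, so only Hbb had a higher mean in cage rats. The mean 3′ over 5′ control ratio was 3.70 (log2) in aged cage and 2.78 in aged yoked rats. Their part in the cage values was not tested.

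In young rats, no member gene passed between hidden platform and visible platform or yoked rats (0.0% of all genes in both), with medians of -0.10 and -0.14. With its brightest probe set, no member gene had an unadjusted p under 0.05 in either by limma, beside 4.64% and 1.64% of all genes. Against visible platform rats, other probe sets of Cox4i1, Cox8a, Atp5po and Ndufs4 had such a p, at 2.04, 1.33, 1.16 and 0.83. The brightest probe sets of these genes were at -0.85, -0.47, -0.82 and -0.44. Against young cage rats, 3 of 54 genes rose (5.56%): Ndufa8 by 1.93 ± 0.53, Atp5pd, a peripheral stalk subunit, by 2.34 ± 0.65, and Atp5f1b by 1.85 ± 0.52 (limma adjusted p of 0.0385, 0.0385 and 0.0419). Of all genes, 4.30% passed, 3.46% rose and 0.835% fell, and 22.2% had an unadjusted p under 0.05, as had 15 members. The young cage signals of Atp5pd were 338, 965 and 76.1, and its young hidden platform signals were 923, 1653 and 2497 (lowest, median, highest), so the groups overlapped. For Atp5f1b they were 2508, 5970 and 807 against 7026, 7442 and 11911, with no overlap. Ndufa8, an accessory subunit of complex I imported through the intermembrane space, read 189, 837 and 349 against 1008, 1355 and 2329, again with no overlap. Both lower cage values of each of the 3 genes came from arrays of low correlation. Without those arrays a single cage array remained and no member passed (0.0928% of all genes did, all of them rises), and the median over the 54 genes went from 0.21 to -0.26. The remaining cage array is assumed in that fit to vary like the other groups. With all arrays, markers of other cells passed in the same comparison: Mbp (myelin) rose by 4.70 ± 1.01, Hbb by 3.47 ± 0.74 and Aldoc (astrocytes) by 3.16 ± 0.87, while Slc2a1, listed for vessels, fell by 2.33 ± 0.58. They were 1 of 6 oligodendrocyte, 1 of 2 blood, 1 of 6 astrocyte and 1 of 7 endothelial and mural markers. The mean 3′ over 5′ control ratio was 1.07 (log2) in young cage and 3.26 in young hidden platform rats. The part of these in the 3 rises was not tested.

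B rats were compared with both learning groups, which share the B arrays. Against unimpaired rats no member gene passed with all arrays (0.0% of all genes; 5 member genes, and 6.71% of all, had an unadjusted p under 0.05 by limma), and the median was -0.14, with 38 of 54 genes lower. With their brightest probe sets, all 10 genes of complex IV counted as ubiquitous, Cox7a2l among them, were lower, with a median of -0.36. So were the 3 genes of complex III, with a median of -0.43. Other probe sets of Cox4i1 (0.46 and 0.23) and of Uqcr11 (0.22) lay above 0. Other tested probe sets of Cox6a1, Cox6b1, Cox6c, Cox7a2l, Cox8a and Uqcrfs1 lay below 0. Medians over the brightest probe sets are not given for this comparison. The member medians can therefore not be told apart from a shift shared by other bright genes. Leaving out the 14 arrays, 3 genes fell (5.56%; of all genes 1.67% passed, 0.866% rose and 0.804% fell): Ndufb3 by 0.66 ± 0.14, Atp5if1 by 0.80 ± 0.20 and Cox5b by 0.47 ± 0.12. Atp5if1 encodes the inhibitor that keeps ATP synthase from consuming ATP, and its signals were 1489, 2544 and 3914 (lowest, median, highest) in unimpaired and 834, 1498 and 2315 in B rats. Its difference with all arrays was the same, -0.80 ± 0.24, with a limma adjusted p of 0.267 (0.0252 without the 14). Cox5b, a zinc-binding subunit of complex IV, had signals of 4404, 7684 and 10433 in unimpaired and 3903, 5832 and 7740 in B rats. Ndufb3 had signals of 1549, 4430 and 6438 in unimpaired and 1881, 2673 and 4453 in B rats. The groups overlapped for all 3 genes.

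Against impaired rats, 5 genes passed (9.26%, beside 12.2% of all genes, of which 6.68% rose and 5.57% fell, and 32% had an unadjusted p under 0.05). Atp5pb rose by 0.90 ± 0.24, Atp5pf by 0.90 ± 0.27 and Ndufb5 by 0.78 ± 0.26, while Cox6c-ps1 fell by 1.2 ± 0.35 and Ndufa4l2, a relative of Ndufa4, fell by 0.58 ± 0.20. Without the impaired array of lowest correlation no gene passed and the median over the 54 genes went from 0.21 to -0.06. When all 14 were left out 6 genes passed (11.1%; of all genes 9.40% passed, 5.01% rose and 4.39% fell): Atp5pb rose by 0.55 ± 0.16, and Cox6a2, Cox5b, Cox7a2l, Ndufa9 and Ndufb3 fell by 0.69, 0.49, 0.60, 0.41 and 0.48. Atp5pb passed in both fits, with B signals of 1721, 3200 and 4100 against 273, 1943 and 2603 in impaired rats. Cox5b and Ndufb3 were thus lower in B rats than in either learning group without the 14 arrays, in comparisons that share the B arrays. With all arrays, 2 of 7 endothelial and mural markers fell between B and impaired rats, Pecam1 by 1.38 ± 0.33 and Kcnj8 by 1.07 ± 0.33, and 2 of 7 interneuron markers rose, Sst by 0.90 ± 0.24 and Npy by 0.67 ± 0.21. Their part in the calls of the member genes was not tested.

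**Figure D5:**
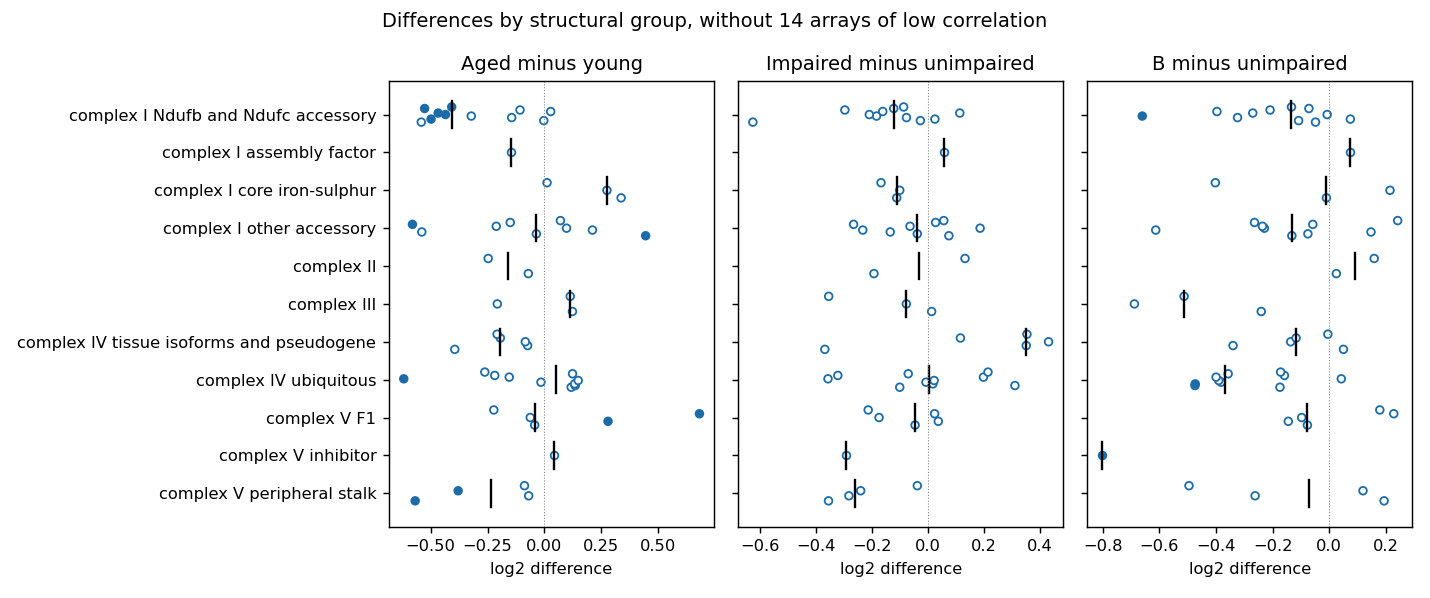
Log2 differences of 54 genes by structural group, without the arrays of low correlation, for age, impaired minus unimpaired and B minus unimpaired; points are genes, filled if they passed, and bars are group medians. In the age panel 5 of 11 Ndufb and Ndufc genes are filled on the left, and in the B panel the ubiquitous complex IV genes have a median of -0.37.

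Across all 10 groups, 9 of 54 genes differed (16.7%, beside 22.9% of all genes and 39.9% at an unadjusted p under 0.05; limma moderated F test): Ndufs4, Ndufa6, Atp5f1d, Ndufa8, Atp5pf, Ndufb1, Cox7b, Atp5f1b and Ndufab1. With all arrays, Ndufs4 had the smallest adjusted p by limma among the brightest probe sets of the 54 genes, 0.000218, and the second probe set of Atp5f1d had 0.000131. With the 14 arrays left out 22 genes differed (40.7%, beside 25.5%), among them 6 of the 9. Ndufa8, Cox7b and Atp5f1b no longer passed (limma adjusted p of 0.119, 0.0876 and 0.0702). In that fit the smallest adjusted p of a member gene was that of Atp5f1d, 0.000670, and Ndufs4 was at 0.00474.

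Probe sets of the same gene often disagreed. Of 23 genes with a second tested probe set, the 2 had the same sign for 12 in the age comparison, 16 in impaired against unimpaired, 17 in B against unimpaired and 7 in young hidden platform against young cage rats. The median absolute gap between them was 0.39 in the age comparison and 1.42 in the last. For Cox4i1 the gap reached 3.43 there. Signals of closely related genes and pseudogenes, such as Cox6c and Cox6c-ps1, may also be shared between probe sets.

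Other genes of energy metabolism gave context. Of 17 tested genes of pyruvate oxidation and the citrate cycle, 2 fell with age: Pdhb, a subunit of pyruvate dehydrogenase, by 0.78 ± 0.14 (limma adjusted p = 0.000470) and Dlat, its acetyltransferase, by 0.69 ± 0.21 (0.0387). Of 16 genes of glycolysis and lactate, 2 rose: Hk1 by 0.62 ± 0.16 and Aldoa by 0.80 ± 0.23. None of 13 mitochondrial carriers, 13 genes of mitochondrial biogenesis, import and dynamics, or 3 electron carriers passed; the smallest p values were those of Mpc1 (-0.63 ± 0.23), Hspe1 (-0.57 ± 0.20) and Etfa (-0.39 ± 0.17). Of the comparison lists, 0 of 40 ribosomal protein genes passed and 1 of 22 proteasome genes fell. The list medians with age were -0.09, -0.11, -0.04, -0.08 and -0.07 for the 5 metabolic lists in that order, and 0.03 and -0.04 for ribosome and proteasome. None of the 5 metabolic lists had a gene past the threshold between impaired and unimpaired rats; Pdha1 was at -0.96 and Ldhb at -0.83.

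Some markers of other cells passed in the age comparison. C1qb (microglia) rose by 1.25 ± 0.23 and Aqp4 (astrocytes) by 0.96 ± 0.23, while Sst (interneurons) fell by 0.67 ± 0.21. All 6 astrocyte markers were higher in aged rats, with a median of 0.33, and 4 of 5 microglia markers, with a median of 0.27. Of 7 interneuron markers 5 were lower, with a median of -0.18, while Gad2 was at 0.57 ± 0.20 (limma adjusted p = 0.0667), and the 2 pyramidal markers had a median of 0.16. None of 6 oligodendrocyte markers passed, with a median of 0.02, although Mbp had the largest age difference of any marker, 1.44 ± 0.46 (limma adjusted p = 0.0502). None of 7 endothelial and mural markers passed, with a median of -0.07. The summed astrocyte signal ran from 20906 to 30862 in young yoked and from 5245 to 43104 in aged yoked rats. The part of the cell makeup in the age differences of the member genes was not tested.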

How the data were processed

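Intensity values were analysed, 1 linear signal per probe set and array, which the authors made with MAS5, per the submitters' processing notes; RNA had been amplified in 2 rounds, per the labels' protocols, which can favour 3′ ends. Deposited arrays were scaled, with a mean of 499 to 500 after trimming 2% at both ends. Depth has no meaning for arrays, and precision is limited by their number. Values were tested as log2(signal + 15); 15 is the 10th percentile of all values. Probe sets in the lowest 40% by mean signal were not tested, which left 5244. Differences on this scale understate changes of dim genes. A gene is its brightest probe set with 1 symbol. Of 8799 probe sets, 7018 had 1 gene symbol, 308 several and 1426 that were not controls none.

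Groups came from sample titles. Fits used limma 3.58.1 in R 4.3.3 (lmFit, eBayes with trend, two-sided, adjusted p under 0.05). Age used 63 arrays and an additive term for treatment, aged comparisons 44, young 19 and those with B rats 60. The members and lists were chosen with earlier results of these data known. Named were members that passed, the smallest p of a complex, the highest and lowest signals, members below the filter, tissue isoforms, genes with several probe sets, and 2 genes per list; others were chosen after their values were seen. Alternatives changed the pseudocount, filter, normalization, moderation, weights, covariate, block, fit and probe set, or left out arrays. The fits were also run on simulated data with independent noise and equal quality on all arrays. Such data hold no arrays of low correlation, so they cannot show how those arrays act on the calls.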

Additional observations from a re-analysis of the deposited data

Results flagged for a closer look

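The median deviation of the 54 genes, and each of 11 genes that passed in a comparison of groups with all arrays, were examined in the 7 groups of 4 to 10 arrays. Of these 84 sets of values, 12 values stood far from the rest of their group by Dixon's ratio, which chance alone gives in about 1 set in 20. The median deviation over the member genes was -2.60 on impaired array 83 and -1.23 on aged visible platform array 67. On impaired array 83, Atp5f1b was at 9.96, Atp5pb at 8.17 and Atp5pf at 6.57 (log2(signal + 15)). On aged yoked array 63, Atp5pd was at 6.73 and Atp5f1b at 10.15. Atp5pb was also low on aged visible platform array 67, at 8.85, and on young hidden platform array 39, at 10.58. These 4 arrays are among the 14 of low correlation. Atp5pf was high on young yoked array 60, at 12.56, and on aged visible platform array 68, at 12.61, and array 68 is also among the 14. Ndufa4l2 was low on aged cage array 98, at 8.07. Arrays 60 and 98 had median correlations just above the limit of 0.85, at 0.858 and 0.852. Numbers are the animal numbers of the labels.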

How the results depend on the processing

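Counts of genes called depended mostly on the arrays and weights used. In the age comparison 3 genes passed, and 1 did with no filter or with the other probe sets of a gene, 10 with array quality weights, 6 with a covariate for the 3′ to 5′ ratio, 7 in 1 fit over all groups, 12 without the 14 arrays of low correlation and 9 without the 11 arrays of high disagreement. The interaction went from 0 to 21, 1, 1 and 1 with weights, the single fit and without either set of arrays. With weights 4 genes passed in aged hidden minus visible, 1 in aged yoked minus cage, 23 in young hidden minus cage, 11 in B minus unimpaired, 16 in B minus impaired and 43 across the 10 groups. Without the arrays of high disagreement 5 passed in aged hidden minus cage, 4 in aged yoked minus cage, 0 in young hidden minus cage, 2 in B minus unimpaired and 20 across groups. Without the 14 arrays 0 passed in young hidden minus cage, 3 in B minus unimpaired and 22 across groups. Young hidden minus cage gave 0 with median centring, with the covariate and with the number ranges as a block, 9 in the single fit and 4 with other probe sets. B minus impaired gave 3 with the covariate and 1 with other probe sets, which gave 10 across groups.

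The member median became 0.026 in aged visible minus cage with the covariate, 0.51 in young hidden minus visible with other probe sets, and in young hidden minus cage -0.26 without either set of arrays and 0.73 with other probe sets. The age difference of Cox6c reversed to 0.20 with its other probe set. The causes were not tested.

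Leaving out 1 array at a time gave 1 to 5 genes in the age comparison (1 without aged yoked array 61, 5 without impaired array 83), 0 to 1 for the interaction, 0 to 7 in young hidden minus cage, where the median was -0.20 without young cage array 76 and 0.42 without young cage array 74, 0 to 6 in B minus impaired (0 without impaired array 83) and 5 to 15 across groups (5 without young cage array 70, 15 without impaired array 83), and 0 in the other comparisons. No paired analysis was possible because the animal numbers do not recur across groups.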
